A study of Mus musculus with 61 samples.

Results

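The IL-27 effect at 48 to 54 h was taken from 6 of the series' 61 Affymetrix arrays. They were chosen by title from the HT_MG-430A arrays: IL27-48, IL27-54 and IL27-54d against ctrl-48, ctrl-54 and ctrl-54d, matched by time and suffix. In the IL27 arm, naive CD4 T cells from C57BL/6 mice were stimulated in culture with IL-27. In the ctrl arm the titles name no cytokine. Both arms share, by the labels, an antibody to CD3 and a second antibody, written there as anti-CD8, each at 1 µg/ml. The growth text with IL-27 at 25 ng/ml stands on every sample, controls included, so the arm of an array was read from its title. Times carry no unit in the labels and are read as hours, the suffix d is not explained in the sources used here, and neither are the animals' age and number. Whether the 3 arrays of an arm stand for different cultures or mice is not said in the labels, and the p-values then rest on a spread between arrays that may be technical. A further pair of arrays of another type, Mouse430A_2, titled IL27-48 and ctrl-48, was read within its own table as a check.

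IL-27 is a cytokine made of the subunits EBI3 and p28, and its receptor pairs IL27RA with gp130, the chain shared with IL-6. Its signals run in part through STAT3, which switches on genes such as Socs3, Il21 and Il10. In T cells stimulated through their antigen receptor, IL-27 is known for favouring type 1 regulatory (Tr1) cells, which make IL-10 without Foxp3, and for holding back helper programs such as that of GATA3. By its title, the series is about the transcriptional program of Tr1 cells as IL-27 brings them about. The comparison asks which genes separate the arms at 48 to 54 h.

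The 6 arrays were alike in brightness, with medians of 34.4 to 35.9 intensity units and a 5th percentile of 8.33 to 8.46. The ctrl-48 array stood apart from its arm. Of 7320 genes tested, 89 were at least 2-fold brighter on it than on both other ctrl arrays, against 0 to 10 genes for each of the other 5 arrays. Across 11313 probe sets its closest array, ctrl-54, correlated at 0.979, whereas ctrl-54 and ctrl-54d correlated at 0.992 and IL27-48 and IL27-54 at 0.994. For counts over all genes, some of the lists and many named genes, the value without the pair of 48 h is therefore given too. The 6 tested T cell marker genes summed to 10612 to 11882 units in the IL27 arrays and 8144 to 10362 in the ctrl arrays, and Cd3d alone reached 4187 to 4705 and 3250 to 4080. Cd4 lay at 257, 342 and 335 in the IL27 arrays, against 318, 377 and 378 in the ctrl arrays. T cell markers, Cd4 among them, were thus read in both arms. Cd8b1, a chain of the CD8 coreceptor, read 89.4 to 115 in the IL27 arrays and 162 to 248 in the ctrl arrays, while Cd8a stayed at 10.1 to 12.1 and 11.0 to 12.6. These markers alone therefore do not settle the label of CD4 T cells. In such bulk samples, fewer cells of a type and less RNA per cell cannot be told apart.

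At 48 to 54 h the cells with IL-27 carried much more transcript for Plac8, the protease-inhibitor-like Ctla2a, the cytokine Il21 and the serpins Serpinb5 and Serpinb1a. They carried much less for the TNF family ligand Tnfsf11, the cytokine Csf2, the surface protein Cd83 and the anchoring protein Lad1. In limma's model over all 52 HT_MG-430A arrays, 555 of the 7320 genes passed a Benjamini-Hochberg adjusted p under 0.05 (7.58%), 264 of them higher (3.61%) and 291 lower (3.98%) with IL-27. Among these, 62 were higher (0.847%) and 68 lower (0.929%) by 2-fold or more. All differences are given as IL27 minus ctrl (3 arrays per arm), after adding 32 units to each intensity and taking log2. That scale understates the change of dim genes. The standard error after ± comes from the spread of the fit over all 52 arrays. It is not the spread of a gene's own 3 pairs, which for Mt1 gave -0.081, 3.605 and 3.631. The sign was the same in all 3 pairs for 537 of the 555, against 43.3% of all genes tested, and the arms did not overlap for 507 of them, against 22.3% of all. Both counts follow in large part from the choice of these genes by a test on the same arrays, and are no separate support. Without the pair of 48 h, 274 genes were higher (3.75%) and 208 lower (2.84%), 6.59% in all, and 352 of the 555 were among these. Without the pair 54d the counts were 175 (2.39%) and 194 (2.65%), 5.05% in all, and without the pair 54 they were 155 (2.12%) and 166 (2.27%), 4.39% in all.

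**Figure D1:**
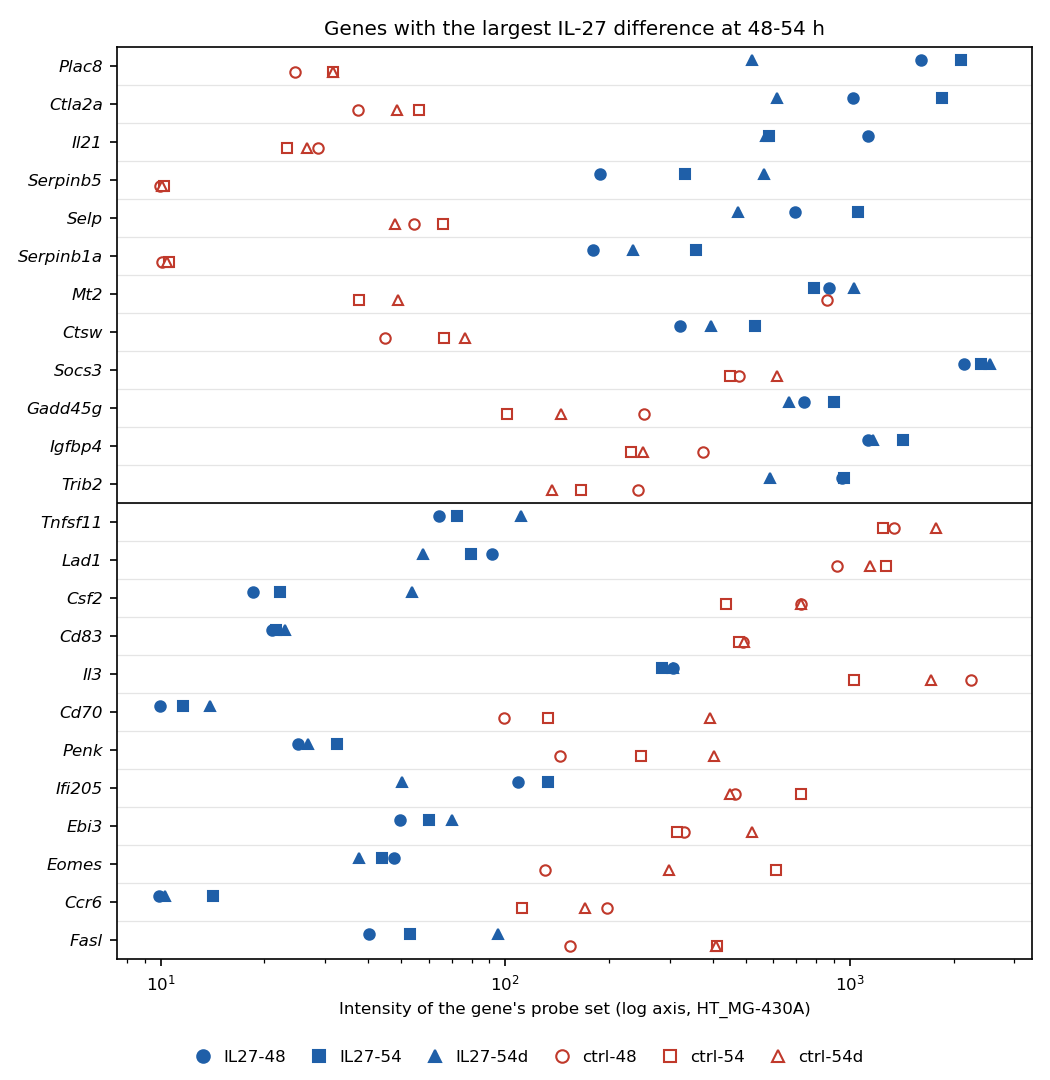
Intensity on the 6 HT_MG-430A arrays (log axis) of the 12 genes with the largest difference in each direction, with filled blue symbols for IL27 arrays, open red symbols for ctrl arrays and one shape per pair. The arms do not overlap for these genes, except that ctrl-48 lies among the IL27 arrays for Mt2.

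Il21, a cytokine that acts on B cells, CD8 T cells and the producing T cells themselves, read 1126, 582 and 569.5 in IL27-48, IL27-54 and IL27-54d, against 28.7, 23.3 and 26.7 in ctrl-48, ctrl-54 and ctrl-54d. Every IL27 array lay more than 10-fold above every ctrl array. The difference was 3.69 ± 0.23, limma adjusted p = 9.8e-13, and on Mouse430A_2 the gene read 2218 in IL27-48 against 28.4 in ctrl-48. Il10, the anti-inflammatory cytokine that defines Tr1 cells, stayed dim at 58.7, 43.9 and 28.5 in the IL27 arrays, against 10.4, 10.1 and 10.8 in the ctrl arrays. The arms did not overlap and the difference was 0.82 ± 0.13, limma adjusted p = 3e-05, while Mouse430A_2 gave 23 in IL27-48 against 20.2 in ctrl-48. Il10 lay below the array median on every ctrl array, so it passed the filter on dim genes through IL27 arrays alone. Its lack of overlap is thus no separate support. Growth factors and interleukins of activated helper cells went the other way. Csf2, which encodes the myeloid growth factor GM-CSF, read 18.5, 22.2 and 53.5 in IL27-48, IL27-54 and IL27-54d, against 722, 437 and 722 in ctrl-48, ctrl-54 and ctrl-54d (-3.38 ± 0.44, limma adjusted p = 1.5e-06). Il3, another myeloid growth factor, read 308, 286 and 308 in the IL27 arrays, against 2240.3, 1028 and 1721 in the ctrl arrays (-2.28 ± 0.47, limma adjusted p = 0.0013). Il2, the T cell growth factor, read 2282, 1628 and 993 in the IL27 arrays, against 4891, 4716 and 5259 in the ctrl arrays. Its arms were apart, with a difference of -1.66 ± 0.44, limma adjusted p = 0.014, but the call was lost without the pair 54d (-1.30, limma adjusted p = 0.21) or 54 (-1.73, 0.078). Ebi3, whose protein is itself a subunit of IL-27, read 49.6, 60.2 and 70.1 in the IL27 arrays, against 329, 316 and 519 in the ctrl arrays and fell by 2.16 ± 0.20 (limma adjusted p = 2.6e-09).

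Gene lists are described by the members that had a probe set of their own and passed the filter on dim genes, so that 14 of 24 listed helper effector cytokines were tested and genes dim in both arms were mostly left out. Of these 14, 2 were higher (14.3%, beside 3.61% of all genes tested) and 4 lower (28.6%, beside 3.98%), with a median difference of -0.17 beside -0.005 over all genes tested. The shares of the lists below are to be read against the same 3.61% and 3.98%. Ifng, the Th1 cytokine, did not pass the test: it read 566, 485 and 488 in the IL27 arrays, against 361, 521 and 1058 in the ctrl arrays, overlapping between arms (-0.19 ± 0.52, limma adjusted p = 0.91), and its sign turned without the pair 54d (0.25). Il4 and Il13, cytokines of Th2 cells, stayed dim in both arms, at 24.9, 22.1 and 25.3 in the IL27 arrays, against 28.5, 26.9 and 29.1 in the ctrl arrays for Il13. None of the 10 chemokine genes tested passed the limma test, and none had an unadjusted p under 0.05.

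Ligands of the TNF superfamily, membrane proteins by which activated T cells signal to other immune cells, were the group with the lowest median of all lists, at -0.77. Of 11 tested, 5 fell (45.5%) and none rose, and the same counts held with any 1 pair left out. Tnfsf11, known as RANKL and a driver of osteoclast formation, read 64.5, 72.4 and 111 in IL27-48, IL27-54 and IL27-54d, against 1341, 1248 and 1782 in ctrl-48, ctrl-54 and ctrl-54d. All ctrl arrays lay above all IL27 arrays by more than 10-fold, and the difference was -3.70 ± 0.31, limma adjusted p = 3.6e-10. Cd70, the ligand of CD27, was near the bottom of the range in the IL27 arm, at 9.93, 11.6 and 13.9 in the IL27 arrays, against 99.1, 133 and 394 in the ctrl arrays (-2.26 ± 0.40, limma adjusted p = 0.0002). Fasl, which triggers death of cells bearing FAS, read 40.3, 53.1 and 95.5 in the IL27 arrays, against 154, 412 and 408 in the ctrl arrays (-1.84 ± 0.28, limma adjusted p = 2.6e-05). Tnfsf8, the CD30 ligand, fell by 1.73 ± 0.24, and Tnfsf4, the OX40 ligand, by 0.87 ± 0.10 (limma adjusted p = 5.7e-06 and 4.7e-07). Cd40lg, the ligand by which helper cells activate B cells, did not pass (-0.22 ± 0.21, limma adjusted p = 0.67). Of 12 genes of the TNF receptor superfamily, none passed the limma test, 1 had an unadjusted p under 0.05, and the median was -0.04.

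The STAT3 and SOCS feedback list had 6 of 16 tested members higher (37.5%) and 1 lower (6.25%), with a median of 0.30. Without the pair of 48 h, 5 were higher and none lower. Socs3, a feedback inhibitor that binds gp130, read 2145, 2398 and 2557 in IL27-48, IL27-54 and IL27-54d, against 476, 449 and 615 in ctrl-48, ctrl-54 and ctrl-54d. The lowest IL27 array was more than 3-fold above the highest ctrl array, and the difference was 2.15 ± 0.22, limma adjusted p = 1.9e-08. Bcl3, a nuclear partner of NF-κB that is induced by STAT3-activating cytokines, read 677, 790.4 and 766 in the IL27 arrays, against 212, 276 and 278 in the ctrl arrays (1.44 ± 0.13, limma adjusted p = 3.6e-09). Ptpn2, a phosphatase that dampens JAK and STAT signalling, rose by 0.56 ± 0.10 (limma adjusted p = 0.00019). Il21r, the receptor of IL-21, rose by 0.38 ± 0.12, just past the threshold (limma adjusted p = 0.045), and gave 0.32 to 0.45 with any 1 pair left out (limma adjusted p = 0.1 to 0.23). Irf1, an interferon regulatory factor, was the lower member, at 700.5, 757 and 503 in the IL27 arrays, against 1733, 1016 and 864 in the ctrl arrays (-0.81 ± 0.21, limma adjusted p = 0.011), and it did not pass without the pair of 48 h (-0.58, limma adjusted p = 0.19). Stat3 itself and Socs1, another feedback inhibitor, did not pass (-0.04 ± 0.20 and 0.07 ± 0.22, limma adjusted p = 0.96 and 0.92), and their signs turned without the pair of 48 h. Nor did the receptor chains Il27ra (0.35 ± 0.12, limma adjusted p = 0.074) and Il6st (0.10 ± 0.21, limma adjusted p = 0.88).

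The promoter window of Socs3 is shown because this gene is a textbook STAT3 target and rose in all 3 pairs. It runs from 250 bases before to 50 after the gene's start, 5′ to 3′ in RefSeq sequence of build GRCm38.p6 (chr11:117969317-117969616, minus strand), with capitals at the STAT-type motif TTCNNNGAA, searched on both strands, of which it holds 1.
Socs3: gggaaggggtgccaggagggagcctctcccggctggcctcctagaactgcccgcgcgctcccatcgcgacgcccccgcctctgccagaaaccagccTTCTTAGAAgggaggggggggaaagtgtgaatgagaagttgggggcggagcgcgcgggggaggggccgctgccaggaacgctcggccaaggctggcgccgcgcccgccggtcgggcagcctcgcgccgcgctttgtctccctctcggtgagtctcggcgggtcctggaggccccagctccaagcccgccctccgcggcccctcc
Of all 32851 such windows, 8.3% hold the motif at least once, as do 6.71% of the windows of genes tested, 9.62% of the windows of genes higher with IL-27 at 48 to 54 h and 5.35% of those of lower genes. The match describes the letters of the window and is not a binding site measured here.

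Of the regulators and markers linked to Tr1 cells, 7 of 18 tested were higher (38.9%) and 2 lower (11.1%), with a median of 0.37. Without the pair of 48 h, 7 were higher and 1 lower. Eomes, described below with the lineage factors, was among the lower members (-2.12 ± 0.31, limma adjusted p = 1.6e-05). Prdm1, which encodes the repressor BLIMP-1, read 125, 235 and 62 in IL27-48, IL27-54 and IL27-54d, against 15.5, 14.6 and 12.2 in ctrl-48, ctrl-54 and ctrl-54d (1.78 ± 0.30, limma adjusted p = 0.00013). Ahr, a ligand-activated factor that promotes Il10 and Il21 transcription, read 139.8, 109 and 102 in the IL27 arrays, against 39.2, 45.2 and 27.2 in the ctrl arrays (1.10 ± 0.15, limma adjusted p = 4.2e-06), although the lowest of its probe sets gave 0.05. Nfil3, a basic leucine zipper factor that promotes IL-10 production, read 749, 770.4 and 794 in the IL27 arrays, against 403, 161 and 221 in the ctrl arrays. All IL27 arrays lay above all ctrl arrays, with ctrl-48 the highest of its arm, and the difference was 1.54 ± 0.17, limma adjusted p = 6.2e-08. Hif1a, the hypoxia-inducible factor, rose by 0.66 ± 0.10 (limma adjusted p = 1.6e-05), with 0.02 to 0.99 over its probe sets. Lag3, an inhibitory receptor found on Tr1 cells, rose by 0.68 ± 0.18 (limma adjusted p = 0.018), a call lost without the pair of 48 h (0.66, 0.084) or 54 (0.61, 0.16). Members that did not pass were Batf (0.40 ± 0.15), Irf4 (0.26 ± 0.22), Icos (0.18 ± 0.19) and Bhlhe40 (-0.39 ± 0.20), with limma adjusted p of 0.13, 0.6, 0.7 and 0.29. Maf and Havcr2 had probe sets that lay below the filter on dim genes, at 13.5 to 14.5 units in the IL27 arrays and 9.62 to 13.2 in the ctrl arrays for Maf, and were not tested.

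Of 18 factors of T cell lineages tested, 6 were lower (33.3%) and 2 higher (11.1%), with a median of -0.12. With the pair of 48 h, 54d or 54 left out, 2, 1 and 1 were higher and 5, 5 and 5 lower. Eomes, a T-box factor of cytotoxic and memory cells, read 47.4, 44 and 37.6 in IL27-48, IL27-54 and IL27-54d, against 130.2, 609 and 298 in ctrl-48, ctrl-54 and ctrl-54d. The ctrl arrays varied almost 5-fold among themselves but all lay above the IL27 arrays (-2.12 ± 0.31, limma adjusted p = 1.6e-05). Gata3, the master factor of Th2 cells, read 31.5, 31.9 and 42.4 in the IL27 arrays, against 130.2, 202 and 167 in the ctrl arrays (-1.55 ± 0.12, limma adjusted p = 9.9e-11). Id3, an inhibitor of E proteins, fell by 1.17 ± 0.27 (limma adjusted p = 0.0038). Its relative Id2 read 606, 736 and 785 in IL27-48, IL27-54 and IL27-54d, against 978, 143 and 141 in ctrl-48, ctrl-54 and ctrl-54d. The arms overlapped, since ctrl-48 lay above every IL27 array. The difference of 1.24 ± 0.34, limma adjusted p = 0.017, was 2.19 without the pair of 48 h (limma adjusted p = 2.2e-06) and was not called without 54d (0.74, 0.39) or 54 (0.79, 0.41). Runx1 fell by 0.88 ± 0.14 on the brightest of its 5 probe sets, the others giving -0.07 or lower. Stat4, which carries IL-12 signals, fell by 0.73 ± 0.14 (limma adjusted p = 0.00041). Hlx, a homeobox gene known for supporting Th1 responses, read 49.1, 72.6 and 42.1 in the IL27 arrays, against 10.8, 11.8 and 11.7 in the ctrl arrays (0.98 ± 0.09, limma adjusted p = 6.7e-09). Tbx21, which encodes the Th1 factor T-bet, did not pass (586, 511 and 528 in the IL27 arrays, against 495, 499 and 523 in the ctrl arrays, 0.09 ± 0.38, limma adjusted p = 0.94). Among factors of the AP-1, BATF, EGR and NR4A families, 1 of 19 was higher (5.26%) and 2 were lower (10.5%). Atf3, a stress-induced repressor, fell by 1.48 ± 0.23 (limma adjusted p = 4.4e-05), and by 0.98 without the pair of 48 h. Batf3 rose by 0.60 ± 0.17 and Nr4a1 fell by 0.66 ± 0.20, and without the pair of 48 h neither passed (0.35 and -0.61, limma adjusted p = 0.34 and 0.15). Batf3 was also lost without 54d and Nr4a1 without 54 (limma adjusted p = 0.082 and 0.29). Irf8 and Rora, factors of other lymphoid programs, did not pass (-0.52 ± 0.36 and -0.09 ± 0.22, limma adjusted p = 0.49 and 0.9).

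**Figure D2:**
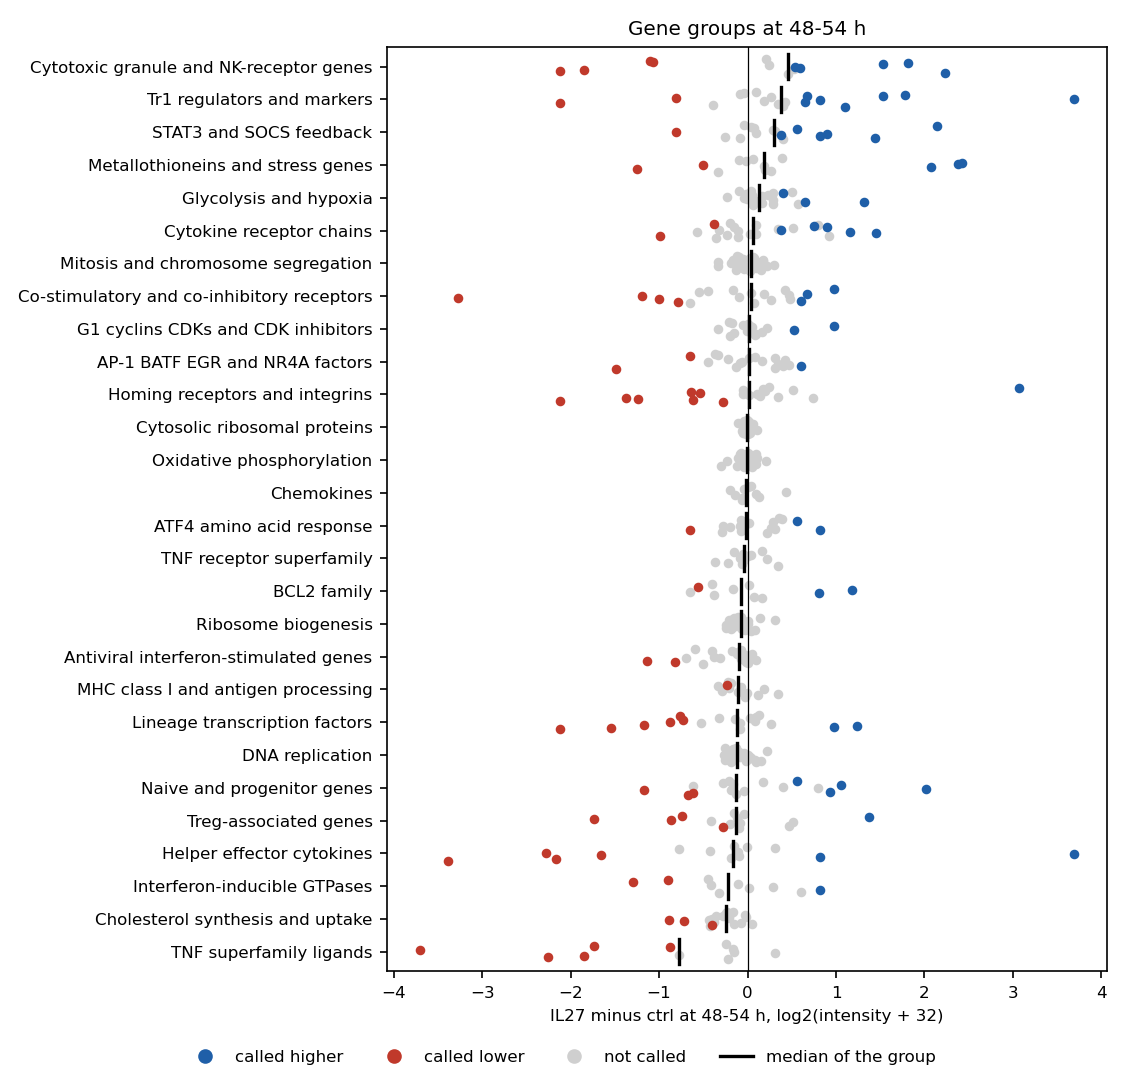
Differences (IL27 minus ctrl at 48 to 54 h, log2 scale) of the tested members of 28 gene lists, one point per gene, blue for called higher, red for called lower, grey for not called, with a black bar at each list's median. Cytotoxic, Tr1 and STAT3 lists have the highest medians (0.46, 0.37 and 0.30) and TNF superfamily ligands the lowest (-0.77), while ribosomal, replication and mitosis genes gather around 0.

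The cytotoxic granule and NK-receptor genes had the highest median of the lists, 0.46, with 5 of 13 tested members higher (38.5%) and 4 lower (30.8%), out of 24 listed. The counts were 3, 4 and 3 higher and 3, 3 and 2 lower when the pair of 48 h, 54d or 54 was left out. Prf1, the pore-forming perforin, read 97.7, 223 and 187 in IL27-48, IL27-54 and IL27-54d, against 17.3, 21.6 and 31.7 in ctrl-48, ctrl-54 and ctrl-54d (1.81 ± 0.12, limma adjusted p = 1.4e-12), although its dimmer second probe set gave -0.02. Ctsw, a cysteine protease of cytotoxic lymphocytes, read 322, 531 and 396 in the IL27 arrays, against 44.9, 66.5 and 76.4 in the ctrl arrays (2.23 ± 0.18, limma adjusted p = 1.6e-10), and Nkg7, a granule membrane protein, rose by 1.53 ± 0.35 (limma adjusted p = 0.0038). The lectin receptors Klrd1 and Klrk1 rose by 0.60 ± 0.18 and 0.53 ± 0.14 (limma adjusted p = 0.034 and 0.015). Gzmb, the granzyme that perforin delivers, was bright in both arms, at 7276, 8516 and 6491 in the IL27 arrays, against 5224, 5217 and 4971 in the ctrl arrays, and did not pass (0.52 ± 0.21, limma adjusted p = 0.16). Serpinb9 and Serpinb6b, inhibitors of granzymes in mice, fell by 1.10 ± 0.28 and 1.07 ± 0.31, and Eomes and Fasl were the other lower members. Nkg7 was not called without the pair of 48 h (1.25, limma adjusted p = 0.078), Klrk1 and Serpinb6b without that of 48 h or 54, and Klrd1 and Serpinb9 without 54d or 54 (limma adjusted p = 0.052 to 0.38). Granule genes such as Prf1 were thus among the higher members, and the death ligand Fasl among the lower ones.

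Serpins outside that list were among the largest changes. Serpinb5, known as maspin, read 189, 332 and 562 in IL27-48, IL27-54 and IL27-54d, against 9.99, 10.2 and 10.1 in ctrl-48, ctrl-54 and ctrl-54d. The ctrl values lie close to the 5th percentile of the arrays, and the difference was 3.11 ± 0.17, limma adjusted p = 4.8e-14, with 0.85 to 3.11 over its 3 probe sets. Serpinb1a, an inhibitor of neutrophil serine proteases, read 179, 357 and 235 in the IL27 arrays, against 10.1, 10.6 and 10.5 in the ctrl arrays (2.72 ± 0.14, limma adjusted p = 6e-15), with 0.31 on its dimmer probe set. Serpinb5 and Serpinb1a lay below the array median on every ctrl array, so they passed the filter on dim genes through IL27 arrays alone. Plac8, a small cysteine-rich protein, had the largest difference of the genes called with one sign in all 3 pairs. It read 1607, 2105 and 519.7 in IL27-48, IL27-54 and IL27-54d, against 24.6, 31.6 and 31.7 in ctrl-48, ctrl-54 and ctrl-54d (4.35 ± 0.36, limma adjusted p = 2.6e-10). Ctla2a, which resembles the propeptide of cysteine proteases, read 1023, 1846 and 614 in the IL27 arrays, against 37.5, 56.3 and 48.4 in the ctrl arrays (3.78 ± 0.30, limma adjusted p = 1e-10). Both varied about 3-fold or more among IL27 arrays, with IL27-54d the lowest, and IL27-54d was also the highest of its arm for Serpinb5. Other large rises were those of Gadd45g, a stress-induced activator of p38 signalling (2.07 ± 0.27), Igfbp4, a binding protein of insulin-like growth factors (2.02 ± 0.20, with 0.70 to 2.07 over its probe sets), and Trib2, a pseudokinase (2.01 ± 0.33).

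Surface receptors were split. Cd83, a glycoprotein of activated lymphocytes and dendritic cells, read 21, 21.6 and 23 in IL27-48, IL27-54 and IL27-54d, against 490.1, 476 and 494 in ctrl-48, ctrl-54 and ctrl-54d. Within each arm the 3 arrays differed by under 10%, and between arms by more than 20-fold (-3.27 ± 0.30, limma adjusted p = 3.6e-09). Among 19 co-stimulatory and co-inhibitory receptors tested, 3 were higher (15.8%) and 4 lower (21.1%), with a median of 0.04. Leaving out the pair of 48 h, 54d or 54 gave 1, 1 and 0 higher and 3, 4 and 3 lower. Cd96 fell by 1.19 ± 0.17, Cd80 fell by 1.005 ± 0.13 on its brightest of 4 probe sets (-1.005 to 0.01), and Cd274, which encodes PD-L1, by 0.78 ± 0.22, which was not called without the pair of 48 h or 54 (limma adjusted p = 0.14 and 0.13). Vsir, the inhibitory receptor VISTA, rose by 0.98 ± 0.20 (limma adjusted p = 0.0013), but not without the pair 54d (0.75, 0.075) or 54 (0.73, 0.091), and it was 1.45 without that of 48 h. Cd28 rose by 0.61 ± 0.16 and gave 0.56 to 0.67 with any 1 pair left out (limma adjusted p = 0.058 to 0.14). Pdcd1, which encodes PD-1, and Ctla4 did not pass (-0.55 ± 0.23 and 0.46 ± 0.26, limma adjusted p = 0.16 and 0.35). Of 22 cytokine receptor chains, 5 were higher (22.7%) and 2 lower (9.09%). With the pair of 48 h, 54d or 54 left out, 3, 3 and 3 were higher and 0, 1 and 1 lower. Il12rb2, a signalling chain of the IL-12 receptor, read 343, 417 and 400.5 in the IL27 arrays, against 111, 155 and 103 in the ctrl arrays (1.45 ± 0.14, limma adjusted p = 8e-09). Il17ra rose by 1.16 ± 0.19, Il4ra by 0.90 ± 0.18 (0.02 to 0.90 over its probe sets) and Il6ra by 0.75 ± 0.21, beside Il21r. Ifngr2, a chain of the interferon-γ receptor, fell by 0.99 ± 0.20, as Tgfbr1 did by 0.37 ± 0.11. Il6ra gave 0.69 to 0.82 with any 1 pair left out (limma adjusted p = 0.068 to 0.14), and Tgfbr1 -0.41 to -0.34 with any 1 pair left out (limma adjusted p = 0.087 to 0.2). The Ifngr2 call was lost without the pair of 48 h (-0.74, limma adjusted p = 0.058).

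Of 19 homing receptors and integrins, 1 was higher (5.26%) and 7 were lower (36.8%). The counts were 2, 2 and 1 higher and 4, 6 and 4 lower when the pair of 48 h, 54d or 54 was left out. Selp, the adhesion receptor P-selectin that is best known from platelets and endothelium, read 694, 1055 and 475 in IL27-48, IL27-54 and IL27-54d, against 54.4, 66 and 47.9 in ctrl-48, ctrl-54 and ctrl-54d (3.07 ± 0.29, limma adjusted p = 4.7e-09). The platelet gene Pf4 read 14.3 to 15.4 in the IL27 arrays and 14.8 to 16.5 in the ctrl arrays. Ccr6, the receptor of CCL20, read 9.89, 14.2 and 10.3 in the IL27 arrays, against 197, 112 and 171 in the ctrl arrays (-2.12 ± 0.20, limma adjusted p = 4.7e-09). Cd44, the hyaluronan receptor that marks activated T cells, fell by 1.38 ± 0.14, Ccr8 by 1.23 ± 0.21, Itgb1 by 0.64 ± 0.15, Ccr7 by 0.61 ± 0.16, Itgav by 0.53 ± 0.16 and Ccr4 by 0.28 ± 0.08. Itgav was -0.23 without the pair of 48 h (limma adjusted p = 0.55) and was not called without 54 either, nor was Itgb1 (-0.45, 0.22), and Ccr7 was not called without the pair of 48 h or 54d (0.079 and 0.13). Ccr4 was dim and did not pass without the pair of 48 h (-0.25, limma adjusted p = 0.13). Among 17 genes of naive and progenitor T cells, 4 were higher (23.5%), led by Igfbp4, with Klf7 (1.06 ± 0.20), Ets1 (0.93 ± 0.28) and Satb1 (0.56 ± 0.16), and 3 lower (17.6%), among them Actn1 (-0.67 ± 0.11). Leaving out the pair of 48 h, 54d or 54 gave 2, 2 and 2 higher and 2, 2 and 3 lower. Ets1 and Satb1 were not called with any 1 pair left out (limma adjusted p = 0.059 to 0.21). Among 14 Treg-associated genes, 4 were lower (28.6%), led by Plagl1 (-1.74 ± 0.23, with -0.13 on a second probe set) and Nrp1 (-0.86 ± 0.14), and 1 was higher, S100a6 (1.38 ± 0.40). With the pair of 48 h, 54d or 54 left out, 0, 1 and 0 were higher and 2, 3 and 3 lower. S100a6 was not called without the pair of 48 h or 54 (1.20 and 0.996, limma adjusted p = 0.16 and 0.3). Swap70, a signalling adaptor, fell by 0.74 ± 0.18, a call lost without the pair of 48 h or 54d (limma adjusted p = 0.14 and 0.058). Penk, the precursor of enkephalins, and Lad1, an anchoring filament protein, were among the 12 largest falls, at -2.21 ± 0.29 and -3.40 ± 0.21. Lad1 read 91.8, 79.6 and 57.9 in the IL27 arrays, against 916, 1273 and 1141 in the ctrl arrays.

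Of 22 antiviral interferon-stimulated genes tested at 48 to 54 h, none rose and 2 fell (9.09%), with a median of -0.09. Without the pair of 48 h none rose and 3 fell, with a median of -0.23. Ifih1, the RNA sensor MDA5, read 85.3, 93 and 132 in the IL27 arrays, against 198, 273 and 329 in the ctrl arrays (-1.13 ± 0.23, limma adjusted p = 0.0013). Eif2ak2, the kinase PKR, fell by 0.82 ± 0.24, a call lost without the pair 54d or 54 (-0.74 and -0.72, limma adjusted p = 0.21 and 0.25). Among 10 interferon-inducible GTPases, 1 was higher (10%) and 2 were lower (20%), with a median of -0.22. Gbp3 rose (0.82 ± 0.21) while Iigp1 (-1.30 ± 0.34) and Irgm1 (-0.90 ± 0.25) fell. None of these 3 kept its call without the pair 54, with limma adjusted p of 0.15, 0.094 and 0.12, Gbp3 lost it without the pair of 48 h (0.078), and Iigp1 and Irgm1 lost it without 54d (0.13 and 0.19). Ifi205, an interferon-activated gene of the p200 family, was lower on all 3 pairs, at 109, 133 and 50.3 in the IL27 arrays, against 463, 724 and 448 in the ctrl arrays (-2.18 ± 0.39, limma adjusted p = 0.00022). Of 13 MHC class I and antigen processing genes, 1 passed: Psme1, a proteasome activator subunit, was lower by 0.23 ± 0.07 and gave -0.24 to -0.21 with any 1 pair left out (limma adjusted p = 0.084 to 0.2).

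Metallothioneins, small proteins that bind zinc and copper, were strongly dependent on the ctrl-48 array. Mt1 read 2511, 2674 and 2549 in IL27-48, IL27-54 and IL27-54d, against 2658, 190.4 and 176 in ctrl-48, ctrl-54 and ctrl-54d. Mt2 read 868, 787 and 1025 in IL27-48, IL27-54 and IL27-54d, against 859.5, 37.6 and 48.7 in ctrl-48, ctrl-54 and ctrl-54d. For both genes the 3 IL27 arrays and ctrl-48 were high together and the 2 ctrl arrays of 54 h were low. The difference was 2.38 ± 0.37, limma adjusted p = 2.6e-05 for Mt1 and 2.43 ± 0.35, limma adjusted p = 9.7e-06 for Mt2, and without the pair of 48 h it was 3.62 and 3.63 (limma adjusted p = 4.3e-13 and 1.3e-14). The other ctrl arrays from 25 to 72 h, 11 in number, had Mt1 at 130 to 463 and Mt2 at 25.9 to 116, while on Mouse430A_2 at 48 h Mt1 read 3699.8 in IL27-48 against 388 in ctrl-48 and Mt2 1496 in IL27-48 against 67.7 in ctrl-48. A second, dimmer probe set of Mt1 gave -0.06. Of the 13 metallothionein and stress genes tested, 3 were higher (23.1%: Mt1, Mt2 and Gadd45g) and 2 lower (15.4%: Gadd45b, -1.25 ± 0.25, and Hspa1b, -0.51 ± 0.15). Without the pair of 48 h 4 were higher and none lower by the limma test, with Gadd45b at -0.94 and Hspa1b at -0.32 (limma adjusted p = 0.05 and 0.34), and Hspa1b was not called without 54d either (0.074).

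Both metallothionein promoters are shown because the 2 genes moved together. The windows run 5′ to 3′ from 250 bases before to 50 after the start, in RefSeq sequence of build GRCm38.p6, Mt1 at chr8:94178839-94179138, plus strand, and Mt2 at chr8:94172368-94172667, plus strand. Capitals mark the metal response motif, written as TGCACNC or TGCGCNC and searched on both strands, with 3 matches for Mt1 and 4 for Mt2.
Mt1: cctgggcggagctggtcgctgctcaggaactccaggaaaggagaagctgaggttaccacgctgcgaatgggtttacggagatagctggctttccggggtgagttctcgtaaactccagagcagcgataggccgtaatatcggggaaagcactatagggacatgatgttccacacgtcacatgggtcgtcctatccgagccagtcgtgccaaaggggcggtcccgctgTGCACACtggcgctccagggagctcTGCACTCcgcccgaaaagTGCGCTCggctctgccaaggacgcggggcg
Mt2: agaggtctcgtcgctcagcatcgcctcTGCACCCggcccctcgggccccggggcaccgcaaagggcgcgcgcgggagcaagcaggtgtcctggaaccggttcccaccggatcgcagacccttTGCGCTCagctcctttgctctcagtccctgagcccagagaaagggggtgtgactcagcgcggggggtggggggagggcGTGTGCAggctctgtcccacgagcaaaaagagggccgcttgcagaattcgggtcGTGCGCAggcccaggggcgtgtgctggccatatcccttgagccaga
Of all 32851 windows, 25.7% hold at least 1 match, 1.97% hold 3 or more and 0.517% hold 4 or more. Among windows of genes higher with IL-27 the share with at least 1 was 27.8%, and among windows of lower genes 33.1%, both below the 36.1% among windows of all genes tested.

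Genes of glycolysis and hypoxia gave different counts with and without the 48 h pair. With all arrays 3 of 22 tested were higher (13.6%) and none lower, with a median of 0.13. These were Hif1a (0.66 ± 0.10), Egln3, a prolyl hydroxylase that marks HIF proteins for breakdown (1.32 ± 0.29), and the glucose transporter Slc2a1 (0.40 ± 0.11). Without the pair of 48 h, 10 were higher, Egln3 and Slc2a1 were 1.99 and 0.71, and the median was 0.48, beside 3.75% of all genes called higher in that fit. Without the pair 54d, or without 54, 1 was higher, and Egln3 and Slc2a1 lost their calls (0.85 and 0.29 without 54d, 1.12 and 0.19 without 54). Of 19 genes of cholesterol synthesis and uptake, 3 fell (15.8%), 18 had a difference below 0, and the median was -0.24. Of all 7320 genes tested, 3552 had a difference above 0. With the pair of 48 h, 54d or 54 left out, 2, 2 and 2 of the 19 fell. Idi1, an isomerase of the mevalonate pathway, read 962, 782 and 779 in the IL27 arrays, against 1648, 1293 and 1835 in the ctrl arrays (-0.89 ± 0.15, limma adjusted p = 0.0001), and Hsd17b7 fell by 0.71 ± 0.14. Dhcr7 fell by 0.41 ± 0.12 and gave -0.45 to -0.35 with any 1 pair left out (limma adjusted p = 0.078 to 0.28). Of 19 genes of the ATF4 amino acid response, 2 were higher (10.5%) and 1 lower (5.26%): Cebpb (0.82 ± 0.19, with 0.002 to 0.82 over its probe sets) and Slc7a5 (0.56 ± 0.15) rose and Chac1 fell (-0.65 ± 0.14). The call of Slc7a5 was lost without the pair of 48 h or 54d, and that of Cebpb without 54d (limma adjusted p = 0.11, 0.2 and 0.052).

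None of 29 DNA replication genes, 29 mitosis genes, 24 cytosolic ribosomal protein genes, 26 ribosome biogenesis genes or 28 oxidative phosphorylation genes passed the limma test, and 2, 0, 0, 1 and 3 of them had an unadjusted p under 0.05. Their medians were -0.12, 0.045, -0.002, -0.08 and -0.01. Without the pair of 48 h the medians were -0.09, -0.02, -0.003, -0.32 and -0.03, and 1 oxidative phosphorylation gene was called lower. In simulated data with this design the test recovered 66.7% of genes changed by 0.5 and 97% of those changed by 1 on the log2 scale. The simulated noise was independent for each gene and array, with no array standing apart as ctrl-48 did. These shares therefore do not measure how well a small shift shared by a list would be found here. Among 16 G1 regulators, 2 were higher (12.5%): Cdkn2d, an inhibitor of CDK4 and CDK6 (0.97 ± 0.20, limma adjusted p = 0.0014), and Cdk6 itself, which rose by 0.53 ± 0.14 and gave 0.49 to 0.56 with any 1 pair left out (limma adjusted p = 0.061 to 0.076). In the BCL2 family, 2 of 10 were higher (20%) and 1 lower (10%). Bcl2l11, the death-promoting BIM, rose by 1.18 ± 0.24, Bcl2, which opposes it, rose by 0.81 ± 0.20 and the death agonist Bid fell by 0.56 ± 0.16 (limma adjusted p = 0.001, 0.009 and 0.028). Bcl2 and Bid lost their calls without the pair 54d or without 54 (0.72 and 0.77 for Bcl2, -0.43 and -0.44 for Bid).

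Within the window, the effect differed between 54 h and 48 h for 103 of the 7320 genes (1.41%), 99 more positive (1.35%) and 4 more negative (0.0546%) at 54 h. This contrast rests on a single array per arm at 48 h, which is assumed to vary like the arrays of the other times, so its p-values borrow their spread. For all 99 genes the ctrl-48 array lay above both ctrl arrays of 54 h, against 34.2% of all genes tested. For 91 of them IL27 lay below ctrl at 48 h, and for 92 it lay above ctrl in both 54 h pairs. These counts follow in large part from the choice of the genes, since a high ctrl-48 raises the contrast by construction. On Mouse430A_2 at 48 h, IL27 lay above ctrl for 87 of the 99, against 45.7% of all genes tested. Adm, which encodes the vessel-dilating peptide adrenomedullin and responds to low oxygen, read 17.6, 28.8 and 21.1 in IL27-48, IL27-54 and IL27-54d, against 535, 14.8 and 17.4 in ctrl-48, ctrl-54 and ctrl-54d. Only ctrl-48 was high: the other 11 ctrl arrays from 25 to 72 h read 13.0 to 27.0, and Mouse430A_2 gave 22.1 in IL27-48 against 19.6 in ctrl-48. The difference of the effects was 3.76 ± 0.18, limma adjusted p = 1.2e-11.

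Selenbp1 and its near-identical relative Selenbp2 had the largest contrasts by limma, at 4.86 ± 0.64, limma adjusted p = 9e-05 and 4.39 ± 0.44, limma adjusted p = 3.1e-06. Selenbp1 read 142, 273 and 218 in the IL27 arrays, against 1093, 27.6 and 31.5 in the ctrl arrays, and probe sets of the 2 genes may share signal. Ier3, an early response gene, had 3.05 ± 0.74, limma adjusted p = 0.035. Mt1 and Mt2 followed the same course (3.70 ± 0.40, limma adjusted p = 6.2e-06, and 3.62 ± 0.34, limma adjusted p = 1.1e-06). Ndrg1 and Bnip3, both textbook targets of hypoxia-inducible factors, were picked out after their values were seen. Ndrg1 read 518, 639.8 and 630.3 in the IL27 arrays, against 1605, 215 and 212 in the ctrl arrays (3.02 ± 0.48, limma adjusted p = 0.00071) and Bnip3, a mitochondrial protein, read 2093, 2930.0 and 2547 in the IL27 arrays, against 4167, 1089 and 1020.1 in the ctrl arrays (2.33 ± 0.45, limma adjusted p = 0.0049). Of the glycolysis and hypoxia list, 9 of 22 genes were among the 99, beside 1.35% of all genes, with a median contrast of 0.98 against 0.002 over all genes. They were Aldoc, Bnip3, Slc2a3, P4ha1, Egln1, Hk1, Vegfa, Slc16a3 and Slc2a1. The 4 genes with a more negative effect were Usp10 (-1.01), Igfbp7 (-0.96), Naa15 (-0.93) and Jpt1 (-0.87). The cause of the readings on ctrl-48 was not tested. The difference at 48 to 54 h of Selenbp1, Selenbp2 and Ier3, not called with all arrays (limma adjusted p = 0.65, 0.91 and 0.27), was 2.17, 1.61 and 1.84 without the pair of 48 h (2e-05, 7.2e-06 and 0.0016). Usp10 was -0.38 without that pair (limma adjusted p = 0.045), and Adm was -1.57 and -1.71 without 54d and 54 (0.012 and 0.003). Without the pair 54d the contrast had 55 genes more positive and 1 more negative at 54 h, and without the pair 54 it had 65 and 2. Ier3, Usp10 and Naa15 lost their calls in both cases (limma adjusted p = 0.15, 0.056 and 0.2 without 54d, and 0.21, 0.22 and 0.16 without 54). Igfbp7 lost its call without 54d (limma adjusted p = 0.33) and Jpt1 without 54 (0.14).

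**Figure D3:**
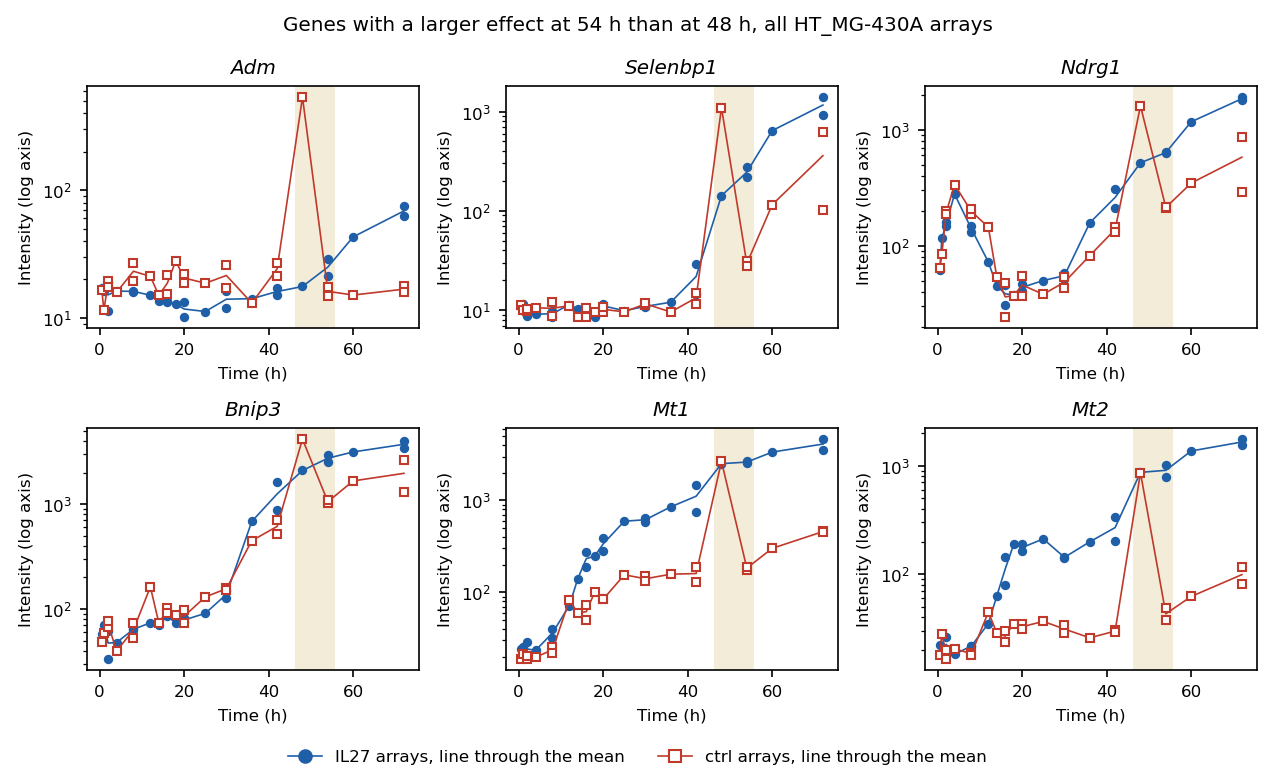
Intensity over time (log axis) of 6 genes on all 52 HT_MG-430A arrays, with filled blue circles for IL27 arrays, open red squares for ctrl arrays, lines through the mean of each time, and shading at 48 to 54 h. At 48 h the ctrl array stands at 535 for Adm, 1093 for Selenbp1, 1605 for Ndrg1 and 2658 for Mt1, above the ctrl arrays on both sides of it.

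The promoter windows of Adm and Bnip3 are shown, chosen after their values were seen, as hypoxia-responsive genes that were high on ctrl-48. Both come from RefSeq in build GRCm38.p6 over the same span, Adm at chr7:110627407-110627706, plus strand, and Bnip3 at chr7:138909457-138909756, minus strand. Capitals mark the hypoxia response core, ACGTG or GCGTG on either strand, with 2 matches for Adm and 5 for Bnip3, where matches may overlap.
Adm: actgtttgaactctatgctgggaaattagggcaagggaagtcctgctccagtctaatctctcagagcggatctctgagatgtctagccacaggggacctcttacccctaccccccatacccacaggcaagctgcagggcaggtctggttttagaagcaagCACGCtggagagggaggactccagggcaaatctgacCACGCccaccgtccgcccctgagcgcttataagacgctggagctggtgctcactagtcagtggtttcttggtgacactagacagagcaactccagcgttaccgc
Bnip3: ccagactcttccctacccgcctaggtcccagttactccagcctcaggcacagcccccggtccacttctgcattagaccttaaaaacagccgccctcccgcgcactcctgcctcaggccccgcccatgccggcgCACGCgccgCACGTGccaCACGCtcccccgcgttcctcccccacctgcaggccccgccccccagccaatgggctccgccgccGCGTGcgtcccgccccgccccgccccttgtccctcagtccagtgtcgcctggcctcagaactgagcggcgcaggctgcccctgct
The core is short and common: 43.8% of all 32851 windows and 64.9% of the 7775 windows of tested genes hold it. It was in 75% of the 108 windows that matched 82 of the 99 genes, a description with no test.

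Against the window of 36 to 42 h, which shares no arrays with it, the effect at 48 to 54 h differed for 8 genes (0.109%), 5 more positive (0.0683%) and 3 more negative (0.041%). Serpinb1a had an effect of 0.17 at 36 to 42 h, 2.72 at 48 to 54 h and 3.85 at 60 to 72 h. The difference from the earlier window was 2.56 ± 0.19, limma adjusted p = 3.4e-10, and on the IL27 arrays the gene ranged from 179 to 357 units at 48 to 54 h. Serpinb5 (2.26 ± 0.24, limma adjusted p = 9.5e-07) and Prf1 (1.42 ± 0.17, limma adjusted p = 5.1e-06) changed in the same interval. Tgfb3, a cytokine of the transforming growth factor family, had 0.13, 1.37 and 3.16 in the 3 windows (1.24 ± 0.17, limma adjusted p = 5e-05). It read 43.6, 115 and 109 in the IL27 arrays, against 18.5, 10.1 and 11 in the ctrl arrays at 48 to 54 h. Castor2 was the fifth (0.86 ± 0.18, limma adjusted p = 0.029, with 0.03 at 48 to 54 h on its other probe set). Ankrd33b (-0.95 ± 0.19, limma adjusted p = 0.024), the phospholipase Pla1a (-0.92 ± 0.16, limma adjusted p = 0.0044) and the neurotrophin receptor Ntrk3 (-0.81 ± 0.16, limma adjusted p = 0.018, with -1.10 to -0.04 at 48 to 54 h over its probe sets) became more negative. Pla1a read 21.4, 34.6 and 23.5 in the IL27 arrays, against 170.0, 164 and 164 in the ctrl arrays, with no overlap. Without the pair of 48 h, 16 genes were more positive and 3 more negative against 36 to 42 h. Ankrd33b was not called without the pair of 48 h (-0.84, limma adjusted p = 0.085) or 54d (-0.90, 0.1), nor Castor2 and Ntrk3 without 54 (0.66 and -0.67, limma adjusted p = 0.37 and 0.24).

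**Figure D4:**
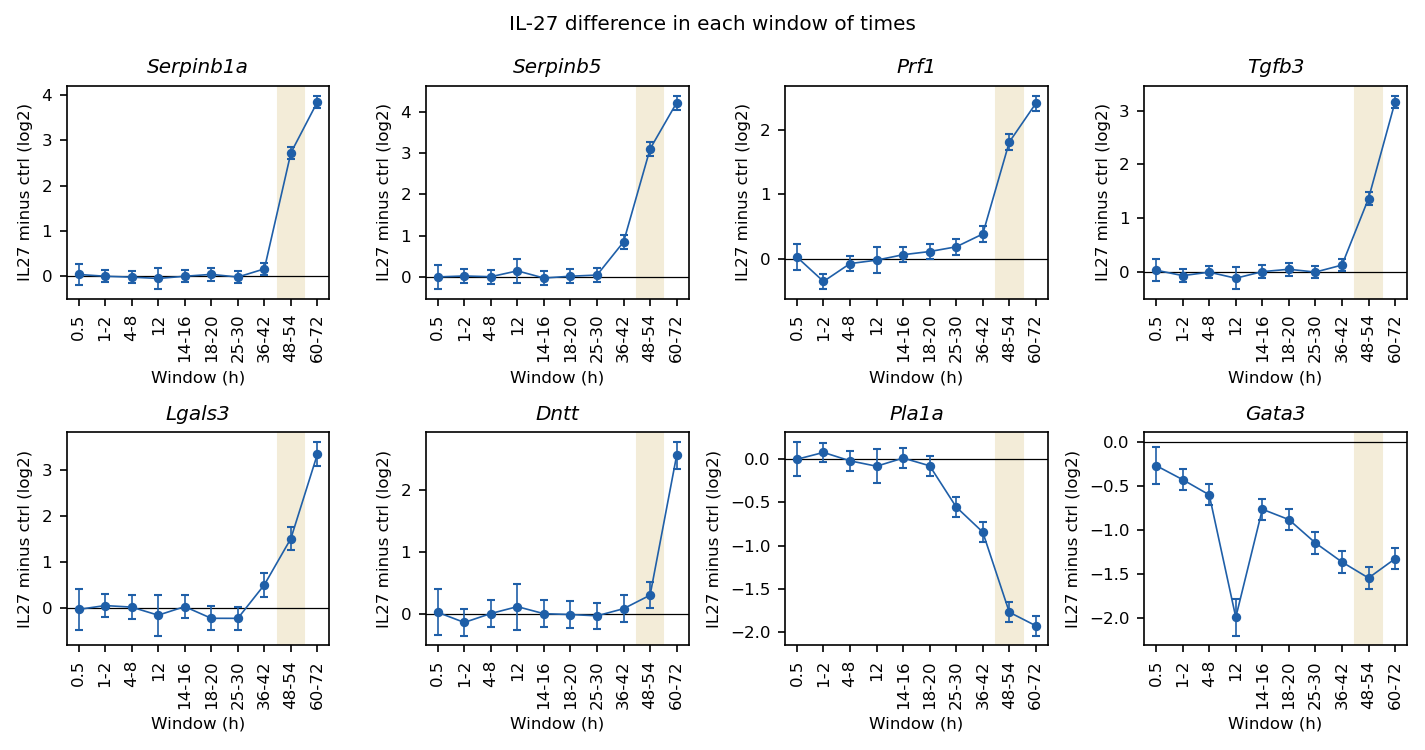
IL27 minus ctrl difference (log2 scale, with standard error bars from the limma fit) of 8 genes in each of 10 windows of times, with 48 to 54 h shaded. Serpinb1a (2.72), Serpinb5 (3.11), Prf1 (1.81) and Tgfb3 (1.37) lie well above 0 at 48 to 54 h, Dntt lies at 0.31 (0.76 without the pair of 48 h), and Gata3 lies below 0 in all 10 windows.

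Against the window of 60 to 72 h, 34 genes differed (0.464%), 1 with a more positive (0.0137%) and 33 with a more negative effect (0.451%) at 48 to 54 h. In that later window ctrl-72 and IL27-72d correlated with their closest arrays at 0.9785 and 0.9782, no higher than ctrl-48 (0.9787). Of genes high on ctrl-48, Selenbp1 read 615 on ctrl-72 against 103 on ctrl-72d, and Adm 17.65 against 15.88. The part of these arrays in the contrast was not tested. Dntt, the DNA polymerase that adds bases at antigen receptor joints, had an effect of 0.31 at 48 to 54 h, against 2.57 at 60 to 72 h (-2.25 ± 0.30, limma adjusted p = 9.5e-05). It read 35, 60.9 and 46.4 in the IL27 arrays, against 68.8, 16.7 and 20.0 in the ctrl arrays, and without the pair of 48 h its effect at 48 to 54 h was 0.76 (limma adjusted p = 0.033), while the contrast with 60 to 72 h kept its sign and its call. Lgals3, which encodes galectin-3, had 0.50, 1.51 and 3.35 in the windows from 36 to 72 h (-1.85 ± 0.36, limma adjusted p = 0.0083). Tgfb3 (-1.79 ± 0.17, limma adjusted p = 5.8e-08), Serpinf1, an anti-angiogenic serpin with 0.46 to 1.40 at 48 to 54 h over its probe sets (-1.59 ± 0.32, limma adjusted p = 0.0085), and Gbe1, the glycogen branching enzyme (-1.56 ± 0.30, limma adjusted p = 0.0072), also had larger effects at 60 to 72 h. Gbe1 was -0.05 at 48 to 54 h with all arrays (limma adjusted p = 0.94) and 0.62 without the pair of 48 h (0.0095). Sdc4, a heparan sulfate proteoglycan, read 39.1, 77.4 and 105 in the IL27 arrays, against 457, 68.1 and 128 in the ctrl arrays and had -2.0 ± 0.40, limma adjusted p = 0.0085. Its difference at 48 to 54 h was -0.96 ± 0.28 with all arrays, -0.05 without the pair of 48 h and -1.50 without 54. Cd80 was the gene with a more positive effect, that is a smaller fall (-1.005 at 48 to 54 h and -1.85 at 60 to 72 h, 0.85 ± 0.19, limma adjusted p = 0.024). Without the pair of 48 h, 12 genes differed, all with a more negative effect at 48 to 54 h, without 54d 4 were more positive and 56 more negative, and without 54 the counts were 17 and 79. Cd80, Sdc4, Lgals3, Serpinf1 and Gbe1 lost their calls without the pair of 48 h (0.82, -1.09, -1.09, -1.40 and -0.89, limma adjusted p = 0.2, 0.062, 0.12, 0.14 and 0.062), whereas Dntt and Tgfb3 kept theirs with any 1 pair left out.

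The Mouse430A_2 pair at 48 h has 1 array per arm and no test. Of the 264 genes called higher, 255 were also higher there, against 45.7% of all genes tested, and of the 291 called lower, 273 were lower there, against 53.6% of all. All 62 higher and all 68 lower genes with a 2-fold difference kept their sign, and 51 and 50 of them were again 2-fold apart, beside 1.48% of all genes 2-fold higher and 1.2% 2-fold lower on this pair. Lad1 read 78.2 in IL27-48 against 3208 in ctrl-48, Ctla2a 3236 in IL27-48 against 46.4 in ctrl-48, Igfbp7, a secreted binding protein whose probe sets ran from -1.84 to -0.01 on HT_MG-430A, 28.4 in IL27-48 against 772 in ctrl-48, and Plac8 2542 in IL27-48 against 62.6 in ctrl-48. Of the largest genes, Selp had 216 in IL27-48 against 25.2 in ctrl-48 there. The medians of the antiviral and GTPase lists were further below 0 on this pair, at -0.55 and -0.60, beside -0.02 for all genes. Such a shift was not particular to them: MHC class I moved from -0.108 to -0.435 and cholesterol synthesis from -0.242 to -0.465. Other lists moved up, such as naive and progenitor genes, from -0.125 to 0.203. These arrays were also brighter, with medians of 74.5 for IL27-48 and 78.2 for ctrl-48, while the value added before log2 was the same. Changes of dim genes are thus understated less here, and sizes cannot be compared directly between the array types.

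**Figure D5:**
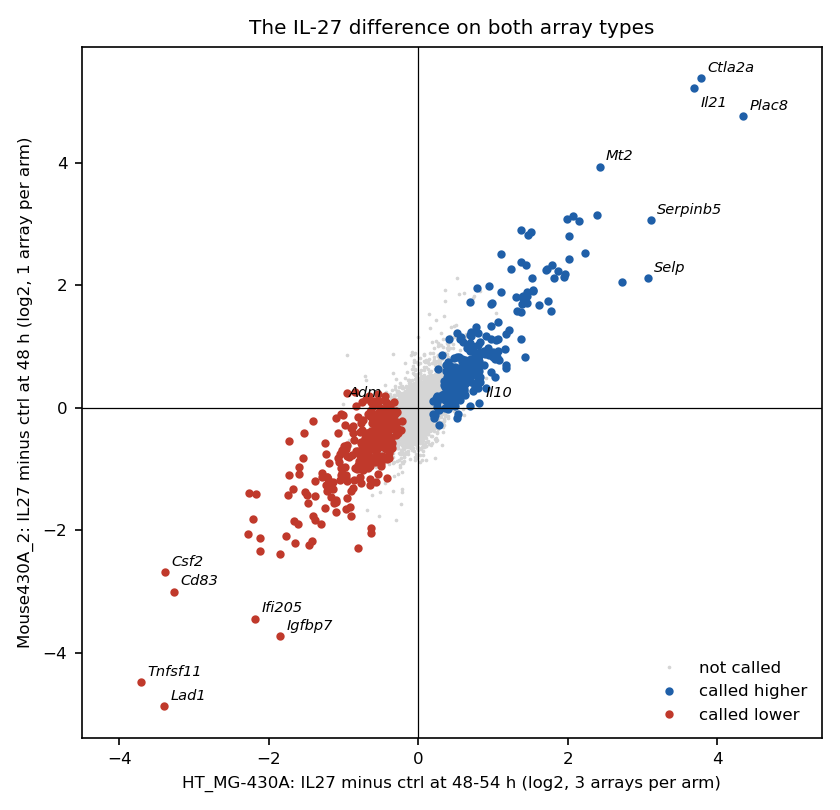
IL27 minus ctrl on HT_MG-430A at 48 to 54 h (x axis, log2 scale, 3 arrays per arm) against the same on Mouse430A_2 at 48 h (y axis, log2 scale, 1 array per arm), blue for genes called higher, red for called lower, grey for the rest. Of the called genes, 255 of 264 and 273 of 291 lie on the side of 0 given by their call.

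Most markers of other cells were low in both arms. The 5 NK cell markers on the array summed to 61.2 to 66.8 units in the IL27 arrays and 55.8 to 67.8 in the ctrl arrays, close to the lowest values of the arrays, and Ncr1 read 12.7 to 14.7 and 12.2 to 14.5. None of 6 tested B and plasma cell markers passed the limma test, none of 6 myeloid ones did either, and 0 and 1 had an unadjusted p under 0.05. Their sums were 526 to 1065 and 527 to 694 in the IL27 arrays, against 606 to 1155 and 582 to 1310 in the ctrl arrays, carried mainly by Ighm and Cst3. Cd79a, which defines B cells, read 11.5 to 12.5 in the IL27 arrays and 11.2 to 12.6 in the ctrl arrays, and Itgam of myeloid cells 10.2 to 12.4 and 10.5 to 11.5. Of 6 MHC class II genes 2 were lower: Cd74, the invariant chain, at 41.3, 41.5 and 107 in the IL27 arrays, against 182, 205 and 283 in the ctrl arrays (-1.47 ± 0.25, limma adjusted p = 0.00013), and H2-Oa (-0.62 ± 0.15, lost without the pair of 48 h or 54, limma adjusted p = 0.078 and 0.073). Without the pair of 48 h, 1 class II gene was higher and 1 lower. The higher one, H2-Ab1, a class II beta chain singled out after its values were seen, read 193, 245 and 167 in the IL27 arrays, against 354, 68.7 and 68.4 in the ctrl arrays, with 0.56 ± 0.28 over all arrays and 1.22 without that pair (limma adjusted p = 0.28 and 0.0027). The class II genes summed to 453 to 618 in the IL27 arrays and 823 to 890.4 in the ctrl arrays. Cd8b1, a chain of the CD8 coreceptor, read 89.4, 105 and 115 in the IL27 arrays, against 175, 162 and 248 in the ctrl arrays (-0.73 ± 0.16, limma adjusted p = 0.0021), while Cd8a stayed at 10.1 to 12.1 and 11.0 to 12.6. Car2, a carbonic anhydrase of red cells, fell by 0.64 ± 0.15 at levels under 62 units, and not without the pair 54d or 54 (limma adjusted p = 0.084 and 0.062). The part of these cells in the results above was not tested.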

How the data were processed

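Transcripts were measured on HT_MG-430A arrays (52) and Mouse430A_2 arrays, 61 arrays in all, and the deposited values are the authors' probe set intensity on a linear scale, summarised with MAS5 per the submitters' processing notes, with no version given in the sources used here. Each array was already scaled to a common level, so no further normalization was applied. Of 22626 probe sets, the platform annotation names 1 gene for 20173, several for 942, which were left out, and none for 1511. Each gene was read from the brightest of its probe sets and kept for testing if it exceeded the median of the array on 3 or more arrays. A gene dim in the ctrl arm can pass through IL27 arrays alone, as Il10, Serpinb5, Serpinb1a and Tgfb3 did. From the deposited intensity, log2(intensity + 32) was fitted with limma 3.58.1 in R 4.3.3 over all 52 arrays, with time as a factor and 1 IL27 term for each window of times, an intensity trend, and Benjamini-Hochberg adjustment over 7320 genes. The contrast between 54 h and 48 h used a mean for each arm and time. On simulated data for the effect at 48 to 54 h (7320 genes), 66.7% of genes changed by 0.5, 97% of those changed by 1 and 100% of those changed by 2 on the log2 scale were called, with 5 unchanged genes called. The simulated noise was independent for each gene and array, with no array standing apart as ctrl-48 did. The number of arrays limits the precision.

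Genes were named as the 12 largest each way among called genes with one sign in all 3 pairs, a panel of genes tied to IL-27, up to 4 called members of each list by adjusted p, the 6 largest each way in each contrast between times, and called markers of other cells. Genes outside this rule are said to be so, or are list members given to complete a count. The 2 arms, the members, the lists and the panel were chosen with earlier results of these data known. Alternatives were another offset, filter, scaling, probe set rule and model, a block by time and suffix, and each pair left out. Arrays of the 2 types were never put in the same fit, and promoter windows were matched by gene symbol to RefSeq sequence of build GRCm38.p6.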

Additional observations from a re-analysis of the deposited data

Results flagged for a closer look

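The effect of IL-27 differed between times, by a limma test of the difference itself, for 25 gene and contrast pairs among those named. Between 54 h and 48 h the differences were 4.86 ± 0.64 for Selenbp1 (limma adjusted p = 9e-05), 4.39 ± 0.44 for Selenbp2 (3.1e-06), 3.76 ± 0.18 for Adm (1.2e-11), 3.70 ± 0.40 for Mt1 (6.2e-06), 3.62 ± 0.34 for Mt2 (1.1e-06) and 3.05 ± 0.74 for Ier3 (0.035). They were -1.01 ± 0.23 for Usp10 (limma adjusted p = 0.02), -0.96 ± 0.23 for Igfbp7 (0.039), -0.93 ± 0.23 for Naa15 (0.039) and -0.87 ± 0.18 for Jpt1 (0.012). All 10 rest on 1 array per arm at 48 h, whose spread is borrowed from the other times, and ctrl-48 stood apart from its arm. On Mouse430A_2 at 48 h, IL27 lay above ctrl for 87 of the 99 genes with a positive contrast, against 45.7% of all genes tested.

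Between 48 to 54 h and 36 to 42 h the differences were 2.56 ± 0.19 for Serpinb1a (limma adjusted p = 3.4e-10), 2.26 ± 0.24 for Serpinb5 (9.5e-07), 1.42 ± 0.17 for Prf1 (5.1e-06), 1.24 ± 0.17 for Tgfb3 (5e-05) and 0.86 ± 0.18 for Castor2 (0.029). They were -0.95 ± 0.19 for Ankrd33b (limma adjusted p = 0.024), -0.92 ± 0.16 for Pla1a (0.0044) and -0.81 ± 0.16 for Ntrk3 (0.018).

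Between 48 to 54 h and 60 to 72 h the differences were 0.85 ± 0.19 for Cd80 (limma adjusted p = 0.024), -2.25 ± 0.30 for Dntt (9.5e-05), -2.0 ± 0.40 for Sdc4 (0.0085), -1.85 ± 0.36 for Lgals3 (0.0083), -1.79 ± 0.17 for Tgfb3 (5.8e-08), -1.59 ± 0.32 for Serpinf1 (0.0085) and -1.56 ± 0.30 for Gbe1 (0.0072). Serpinb1a and Serpinb5, named for the earlier contrast, also differed from 60 to 72 h (Serpinb1a -1.12 ± 0.19, 0.0018 and Serpinb5 -1.12 ± 0.24, 0.019, limma adjusted p last). Among the 60 to 72 h arrays, ctrl-72 and IL27-72d correlated with their closest arrays at 0.9785 and 0.9782, beside 0.9787 for ctrl-48.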

How the results depend on the processing

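Of 91 named genes called at 48 to 54 h, 59 kept direction and call under all 19 alternatives. Of 1718 single values, 1563 kept the call, 155 lost it and none turned in sign. Fitting only the 6 arrays called 153 higher and 145 lower genes, and 166 and 180 with a replicate block. Leaving out a pair or a single array gave 155 to 274 higher and 166 to 285 lower. Against 36 to 42 h, an offset of 100 gave 9 more positive and 6 more negative genes, an offset of 1 gave 1 more negative, and leaving out a pair gave 4 to 16 more positive. Against 60 to 72 h, the more positive genes numbered 3 with all probe sets averaged, 4 with no filter, 2 with no trend, 0 and 2 with offsets of 1 and 100, 4 with quantile normalization and 0 to 17 with a pair left out. The more negative genes there numbered 54 with no filter, 6 with an offset of 1 and 12 to 79 with a pair left out. For 54 h minus 48 h, leaving out a pair of 54 h gave 55 to 65 more positive and 1 to 2 more negative genes.

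Signs turned for some genes that were not called. With a pair or array left out, Rora ran from -0.439 to 0.473, Socs1 from -0.067 to 0.226 and Stat3 from -0.210 to 0.253, each turning without the pair of 48 h. Il6st ran from -0.062 to 0.263, turning without IL27-54 or ctrl-54d (-0.031), and Ifng from -0.583 to 0.254, turning without ctrl-54d (0.206) or the pair 54d. Among genes named for a contrast between times, the difference at 48 to 54 h turned without the pair of 48 h for Adm (-1.01 and 0.24 without it), Gbe1 (-0.05 and 0.62) and Jpt1 (0.05 and -0.24), and without 54d for Selenbp1 (0.55 and -0.17), Selenbp2 (0.15 and -0.46), Usp10 (-0.05 and 0.06) and Naa15 (-0.02 and 0.13), each of which turned without 54 too. The cause of these changes was not tested beyond the fewer arrays in each fit.

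A fit with a replicate block of time and suffix called 560 and 603 genes at 48 to 54 h, 41 and 43 against 36 to 42 h, 28 and 74 against 60 to 72 h, and 238 and 80 for 54 h minus 48 h. Deviations of arrays sharing time and suffix correlated at 0.227 to 0.755 at 7 of 8 duplicated times, with 0.568 at 54 h, and at -0.015 at 30 h. Within the window the pairs 48, 54 and 54d gave -0.078, 0.116 and 0.428, and 1 of 3 IL27 arrays correlated best with the ctrl array of its own pair. These last values mix 48 h with 54 h and include ctrl-48, so they cannot decide whether the shared names mark pairs. The labels do not settle it either. The main fit used no pairing, and the counts of the block show how far the calls depend on that. Under that block Il27ra and Pdcd1 also passed (limma adjusted p = 0.012 and 0.0033). Gzmb passed with the 6 arrays alone (0.02). Genes near 10 units, such as Il10 in the ctrl arm, lie near the arrays' 5th percentile, where differences are limited by background.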

Other observations

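Genes of other helper programs stayed near the lower end of the arrays in both arms and were mostly not tested. Foxp3, the factor of regulatory T cells, read 15.7, 15.5 and 16.2 in the IL27 arrays, against 19.8, 19.9 and 15.1 in the ctrl arrays. Il17a, the Th17 cytokine, read 14.0, 13.8 and 15.7 in the IL27 arrays, against 14.1, 16.6 and 23 in the ctrl arrays. Il5, a Th2 cytokine, read 9.86, 10.5 and 9.27 in the IL27 arrays, against 8.75, 9.31 and 9.20 in the ctrl arrays. Gzma, a granzyme of cytotoxic cells, was below the filter with 21.3, 51.7 and 22.8 in the IL27 arrays, against 10.3, 11.7 and 18.2 in the ctrl arrays, and Havcr2, the inhibitory receptor TIM-3, read 17.1, 17.3 and 18.5 against 15.4, 14.2 and 14.4.

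Ribosome biogenesis genes had a median contrast of -0.67 between 54 h and 48 h, against 0.002 over all genes, with none of 26 called by the limma test of the contrast. Their median difference at 48 to 54 h was -0.08 with all arrays and -0.32 without the pair of 48 h, and on Mouse430A_2 at 48 h it was -0.34. Between 25 and 72 h, with the 48 h arrays left out, Selenbp1 spanned 9.92 to 1392 units over 11 IL27 arrays and 9.63 to 615 over 11 ctrl arrays. Among these only IL27-72d, at 1392, read above ctrl-48 (1093), and IL27-72 was next at 930. Adm, by comparison, reached at most 74.8 in those IL27 arrays and 27.0 in those ctrl arrays.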
